A study of Saccharomyces cerevisiae with 9 samples.

Results

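The genes described here are 53 assembly factors of the large (60S) ribosomal subunit of budding yeast, taken from a table of 6942 genes and non-coding features. They were chosen by name, as row IDs of known factors of the 60S precursor from its first nucleolar form to its export and last cytoplasmic steps. The rule uses no measured value, but earlier results of these data were known when the genes were chosen. All 53 had a value on all 9 arrays. The study asked how yeast transcripts respond to salt shock and how regulators of signalling shape that response. Each array compared 2 cDNA pools of the same strain on 1 tiled microarray, one from cells kept for 30 min in 0.7 M NaCl and one from unstressed cells, both grown in the rich medium YPD at 30°C. The 7 wild-type (WT) arrays came from the laboratory strain BY4741, and the 2 other arrays from ckb12, a strain without CKB1 and CKB2, the genes of the regulatory subunits of the protein kinase CK2. The ckb12 strain, of the same BY4741 background, was obtained from another laboratory. Its arrays carry the set letters A and B, each shared with 1 WT array (WT replicates 8 and 9). The letters C, D and E belong to WT replicates 10, 11 and 12, whereas no letter is given for WT replicates 1 and 2. The methods describe the replicates as biological, while the labels give replicate numbers only.

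The 60S subunit is built in the nucleolus around the precursor of 25S and 5.8S rRNA, which a particle with 5S rRNA joins. Assembly factors bind this precursor in order, modify and fold the RNA, remove its internal spacers, place the ribosomal proteins and then leave, some of them only in the cytoplasm after the particle has passed the nuclear pore. In yeast their genes belong to the ribosome biogenesis regulon, a large group of growth genes whose transcripts are known to fall when cells are stressed or starved and to return as growth resumes.

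Values below are log2 ratios, the salt-treated signal divided by the unstressed one, so that a negative value is a fall. The deposited arrays are centred on their median feature, so a ratio is a change relative to other transcripts and gives no transcript level. Fewer cells with a transcript and less of it per cell cannot be told apart in such bulk RNA. The arrays held 6205 to 6812 values each, with an SD of 1.22 to 1.41 across features. WT replicate 12, which 1 label field calls a mutant although its title and genotype say WT, had the widest spread of the WT arrays, with a median absolute deviation of 1.07 against 0.877 to 0.957 on the other 6 and 0.951 and 0.994 on the ckb12 arrays. It is treated as WT. Between strains, the count of members outside the WT range and the count called against the WT arrays are given with and without it. Unless stated otherwise, the other counts over the 7 WT arrays include it. For CKB1 the WT mean was -0.60 ± 0.20 (SD, n = 7) and the ckb12 mean 0.71 ± 0.37 (SD, n = 2), while CKB2 had means of -0.18 ± 0.18 and 0.76 ± 0.07. For both genes the ckb12 arrays lay above every WT array, and the share over all features was not computed. A ratio within a strain cannot show a deletion, so these values are no check of the genotype.

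In WT every one of the 53 transcripts fell after salt. The median member dropped to 15.0% of its unstressed signal relative to the array, a 6.67-fold fall (median -2.74), while the median over all tested features was -0.042. The largest mean falls were those of DBP3, an RNA helicase, RRS1, which brings the 5S rRNA particle into the precursor, and NOG1, a GTPase of the early and middle particles. The smallest was that of TIF6, the factor that keeps free 60S subunits from joining 40S subunits. In a limma fit of the mean of 7 WT arrays against 0, with Benjamini-Hochberg adjustment over 6129 features and a call at an adjusted p below 0.05, 53 of 53 members were called lower, beside 40.6% of all features. With a further minimum of 1 on the log2 scale 52 members were called, beside 16.2%, and the exception was TIF6. All 53 were below 0 on each of the 7 WT arrays, as were 36.5% of all features. The highest adjusted p among the members was 1.1e-05, for TIF6 (limma, Benjamini-Hochberg).

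The falls were large but not equal. The WT means of 16 members were at or below -3, those of 29 lay between -3 and -2, and those of 8 were above -2. Ranked among the 6129 features from the largest fall, DBP3 stood at position 13, 34 members were in the lowest 2.5% and 51 in the lowest 10%, while DBP6 stood at 837 and TIF6 at 1110. The median SD of a member over the 7 WT arrays was 0.28, and every member overlapped in its WT range with the next one in the order.

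In ckb12 all 53 transcripts fell as well, and the ckb12 mean was below the WT mean for 53 members on the deposited scale and for 48 after quantile normalization, beside 58.8% and 55.8% of all features. The median ckb12 mean was -3.36, a 10.3-fold fall that left 9.72%. In the limma fit of all 9 arrays, with the spread shared between strains, 53 members were called lower, beside 35.7% of all features, with adjusted p-values from 4.8e-09 to 0.00041 (Benjamini-Hochberg). The means of 35 members were at or below -3. DBP3 again had the lowest mean, -4.27 ± 0.067 (SD, n = 2), and TIF6 the highest, -1.02 ± 0.12. The 2 ckb12 arrays ordered the members almost alike, with r = 0.98 over 53 genes that share those arrays.

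**Figure D1:**
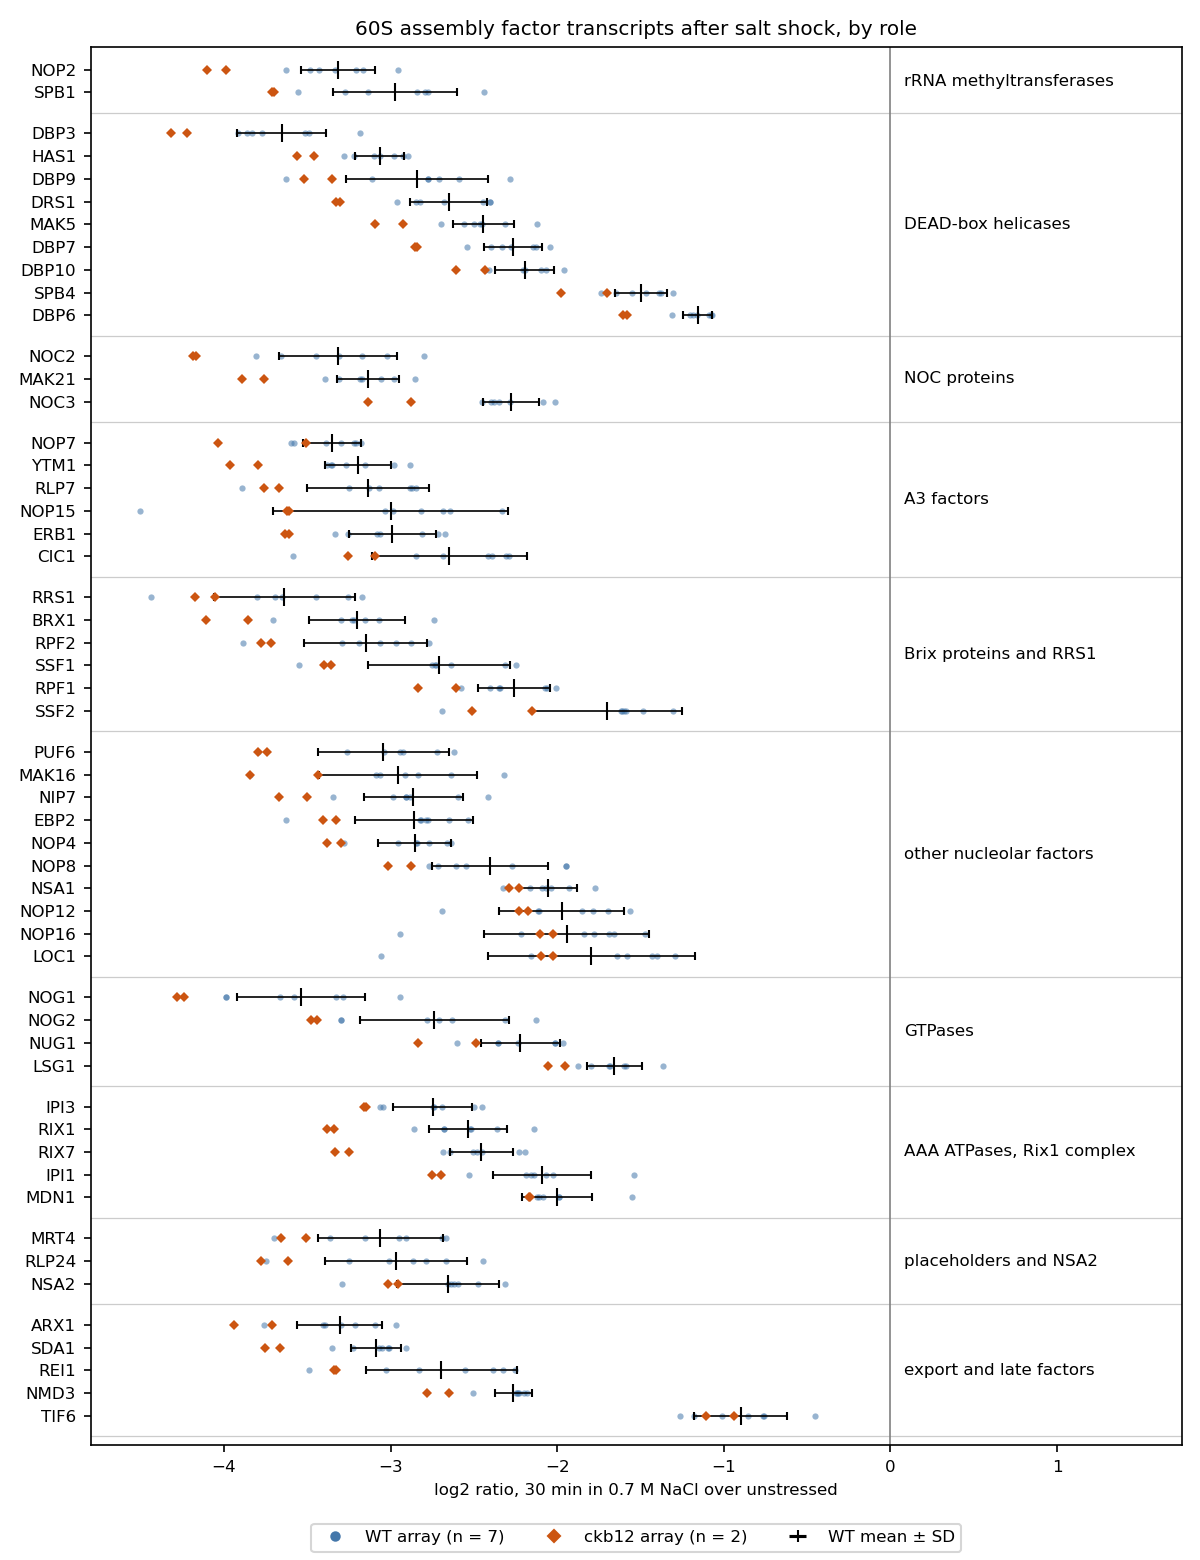
Log2 ratios of the 53 transcripts, treated over unstressed (x axis), grouped by role and ordered by WT mean within a role; circles are the 7 WT arrays, diamonds the 2 ckb12 arrays, and bars the WT mean ± SD. Every point lies below 0, and the 2 ckb12 points of 27 genes lie to the left of all 7 WT points.

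The comparison of ckb12 with WT asked whether the response to salt differs without the regulatory subunits of CK2. Within the sets, the difference between the ckb12 ratio and the WT ratio of the same set had a median of -0.61 over the 53 members, or 1.53-fold, beside -0.047 over all features. The median was -0.65 in set A and -0.51 in set B. The mean of both sets was below 0 for 53 members, for 51 after scaling all arrays to an equal median absolute deviation and for 45 after quantile normalization. Of all features 57.3%, 59.1% and 54.5% were below 0 under these scalings. As deposited, the mean was at least 1.5-fold lower for 28 members, beside 6.48% of all features. Both sets gave a lower ratio in ckb12 for 51 members, beside 38.3% of all features, and the exceptions were MDN1 and NOP7.

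None of these paired differences passed the test. With the set as a block, 4 arrays and 1 residual degree of freedom, limma with Benjamini-Hochberg adjustment over 6600 features called 0 members lower and 0% of all features, with adjusted p-values from 0.114 to 0.964 among the members. At an unadjusted p below 0.05 there were 41 members, beside 10.5% of all features. When the fit was limited to the 6356 features with open reading frame names, 31 members were called lower, beside 5.79% of those features. Against all 7 WT arrays with no block, a comparison that shares the ckb12 arrays and 2 WT arrays with the paired one, the median difference was -0.58, beside -0.057 over all features. Here 1 member, RIX7, was called lower, beside 0.783% of all features, and 36 members were lower at an unadjusted p below 0.05, beside 10.7%.

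The ckb12 arrays lay outside the WT range for many members. Both ckb12 ratios were below all 7 WT ratios for 27 members, beside 12% of all features. Without WT replicate 12, a setting chosen after seeing the data, this held for 44 members, beside 14.7%. The limma fit of the 2 ckb12 against the 6 other WT arrays then called 15 members lower, beside 1.79% of all features (Benjamini-Hochberg). These 15 were NOC3, MAK21, YTM1, NOP15, RLP7, BRX1, SSF1, SSF2, RPF2, EBP2, PUF6, NIP7, RIX7, RIX1 and SDA1. The counts of this paragraph, and the overlaps of strains stated gene by gene below, are on the deposited scale. They were not computed after rescaling. The slope through the origin of ckb12 means on WT means was 1.21 over the members and 1.03 over all features. How far the width of an array's ratios sets these differences was not tested beyond the scaling alternatives, under which the paired median was -0.34 with equal median absolute deviations and -0.21 after quantile normalization.

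**Figure D2:**
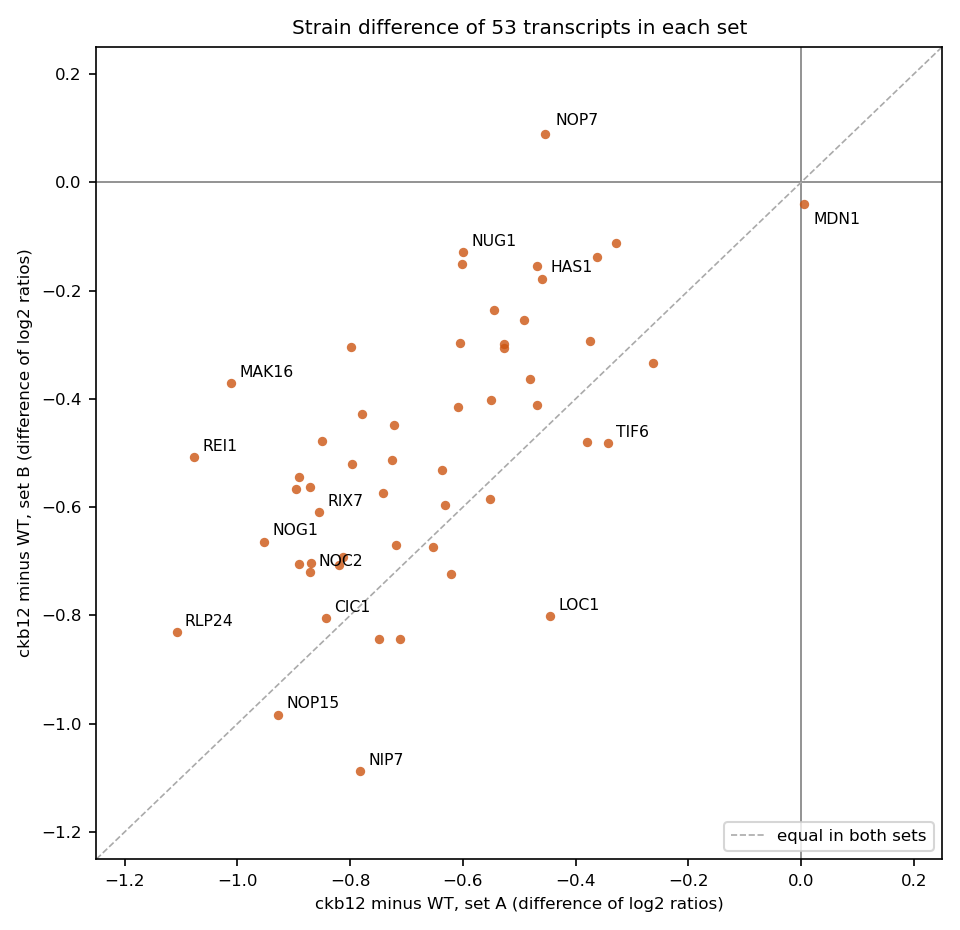
Difference of log2 ratios, ckb12 minus WT, in set A (x axis) and set B (y axis), 1 point per gene for 53 genes; the dashed line marks equal differences. The points of 51 genes lie below 0 in both sets on the deposited scale, with MDN1 near the origin and NOP7 above 0 in set B; after quantile normalization the mean of both sets was below 0 for 45 genes.

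Sets A and B did not give the same size of difference for every gene. Over the 53 genes, which share their 4 arrays, the set differences correlated with r = 0.61. RLP24, NOP15, NIP7, CIC1 and NOG1 had the lowest means of both sets, between -0.97 and -0.81. MDN1, NOP7, NOP12, NSA1 and NOP16 had the highest, between -0.30 and -0.017. MAK16, a factor of the early nucleolar particle, had a set A difference of -1.01 and a set B difference of -0.37, and NIP7 showed the opposite order, -0.78 and -1.09.

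The rRNA methyltransferases were NOP2 (YNL061W), which methylates a cytosine of 25S rRNA, and SPB1 (YCL054W), which methylates a ribose of 25S rRNA near the active centre. NOP2 ratios ran from -3.63 to -2.96 in WT, with a median of -3.33, and were -3.99 and -4.10 in ckb12. SPB1 ranged from -3.55 through -2.84 to -2.44 in WT and was -3.71 and -3.70 in ckb12. For both genes the ckb12 arrays lay below every WT array. The paired differences were -0.66 (SE 0.14) and -0.72 (SE 0.16), for which limma gave Benjamini-Hochberg adjusted p-values of 0.145 and 0.151.

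The 9 DEAD-box proteins, ATP-dependent RNA helicases that open or rearrange RNA in the precursor, spanned most of the range of the whole group. DBP3 (YGL078C) acts early in the processing of the spacer upstream of 5.8S rRNA, and its WT ratios ran from -3.92 to -3.18 with a median of -3.77, a mean of -3.65 ± 0.27 (SD, n = 7) or a 12.6-fold fall. In ckb12 it was -4.32 and -4.22, below every WT array. Its paired difference of -0.55 became 0.017 after quantile normalization. HAS1 (YMR290C), which serves both subunits, ranged from -3.28 through -3.06 to -2.90 in WT and was -3.56 and -3.46 in ckb12. DRS1 (YLL008W) ranged from -2.96 through -2.68 to -2.40 and was -3.30 and -3.33. The ckb12 ratios of both helicases were below all WT ratios, yet their paired differences of -0.32 and -0.42 turned to 0.22 and 0.040 after quantile normalization. The WT means of DBP9 (YLR276C), MAK5 (YBR142W), DBP7 (YKR024C) and DBP10 (YDL031W) lay between -2.84 and -2.20, and their paired differences between -0.66 and -0.39. DBP6 (YNR038W) and SPB4 (YFL002C) fell least among the helicases. DBP6, which works with other helicases on the first 60S precursor, had WT ratios from -1.31 to -1.07 with a median of -1.16, and its SD of 0.088 was the smallest of the 53 members. Its ckb12 ratios of -1.58 and -1.60 were below all of them. SPB4 ranged from -1.73 through -1.47 to -1.31 in WT, and its ckb12 ratios of -1.98 and -1.70 overlapped that range. The paired differences of this pair were -0.33 and -0.38.

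The NOC proteins form pairs that travel with the precursor, MAK21 (YDR060W), once named NOC1, with NOC2 (YOR206W) in the nucleolus and NOC2 with NOC3 (YLR002C) afterwards. NOC2 ranged from -3.81 through -3.31 to -2.80 in WT and was -4.18 and -4.17 in ckb12. MAK21 ranged from -3.39 through -3.17 to -2.85 and was -3.89 and -3.76. NOC3 had smaller falls, from -2.45 through -2.35 to -2.01, with ckb12 ratios of -3.13 and -2.88. For each of the 3 genes the strains did not overlap. The paired differences were -0.80, -0.58 and -0.66, for which limma gave Benjamini-Hochberg adjusted p-values of 0.125, 0.187 and 0.171.

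NOP7 (YGR103W), ERB1 (YMR049C) and YTM1 (YOR272W) form a complex needed to trim the 5′ end of 5.8S rRNA, and NOP15 (YNL110C), CIC1 (YHR052W) and RLP7 (YNL002C) sit near the spacer between 5.8S and 25S rRNA. NOP7 ranged from -3.60 through -3.30 to -3.18 in WT. Its ckb12 ratios were -4.03 and -3.51, only the first of them below every WT array, and the set differences were -0.45 (A) and 0.09 (B). ERB1 ranged from -3.33 through -3.07 to -2.67 and was -3.61 and -3.63 in ckb12. YTM1 ranged from -3.38 through -3.27 to -2.88 and was -3.96 and -3.80. The ckb12 ratios of ERB1 and YTM1, but not those of NOP7, were below every WT array. After quantile normalization the paired differences of the 3 genes, -0.18, -0.41 and -0.51 as deposited, became 0.33, 0.11 and 0.071.

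The 3 spacer-binding factors had one WT array far below the rest. RLP7, a relative of ribosomal protein L7, ranged from -3.89 through -3.07 to -2.85 in WT, and NOP15, an RNA-binding protein, from -4.51 through -2.82 to -2.33. CIC1 ranged from -3.59 through -2.41 to -2.29. In each case the lowest value was that of WT replicate 12. The ckb12 ratios were -3.76 and -3.67 for RLP7, -3.61 and -3.62 for NOP15, and -3.26 and -3.10 for CIC1. They overlapped WT, and without replicate 12 they did not. Their paired differences, which do not use that array, were -0.72 (SE 0.16), -0.96 (SE 0.14) and -0.82 (SE 0.14). The limma fit gave them Benjamini-Hochberg adjusted p-values of 0.154, 0.114 and 0.119.

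The Brix-domain proteins bind rRNA in nucleolar particles, and RPF2 (YKR081C) works with RRS1 (YOR294W) to bring in the 5S rRNA. RRS1 ranged from -4.44 through -3.65 to -3.17 in WT, a mean of -3.64 ± 0.42 (SD, n = 7) or a 12.4-fold fall, and was -4.05 and -4.17 in ckb12. RPF2 ranged from -3.89 through -3.06 to -2.77 and was -3.78 and -3.72. For both partners the ckb12 ratios were below 6 of 7 WT arrays. BRX1 (YOL077C) had a WT mean of -3.20 ± 0.29 (SD, n = 7) and a ckb12 mean of -3.98 ± 0.18 (SD, n = 2), without overlap. RPF1 (YHR088W) did not overlap either, with means of -2.26 ± 0.21 and -2.72 ± 0.16. The paired differences of RRS1, RPF2, BRX1 and RPF1 were -0.66, -0.78, -0.80 and -0.37. SSF1 (YHR066W) and SSF2 (YDR312W) are near-identical paralogues that can replace each other, and probes for one may read the other, so their separate values are uncertain. SSF1 ranged from -3.55 through -2.72 to -2.25 in WT and was -3.36 and -3.40 in ckb12. SSF2 fell less, from -2.69 through -1.60 to -1.30, and was -2.51 and -2.15. The paired differences of the paralogues were -0.69 and -0.73.

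Among the 10 other nucleolar factors, 7 had WT means between -3.04 and -2.06. At these ends were PUF6 (YDR496C), a Pumilio-family RNA-binding protein, and NSA1 (YGL111W), which leaves the particle when the ATPase RIX7 (YLL034C) acts. The others were NOP12 (YOL041C) at -1.97 ± 0.38, NOP16 (YER002W) at -1.94 ± 0.50 and LOC1 (YFR001W), also known for localising ASH1 mRNA, at -1.80 ± 0.62 (SD, n = 7). NIP7 (YPL211W), a small protein needed for 27S rRNA processing, ranged from -3.34 through -2.91 to -2.41 in WT and was -3.67 and -3.50 in ckb12, below every WT array. Its paired difference was -0.93 (SE 0.16), and the Benjamini-Hochberg adjusted p from limma was 0.119. NOP12 ranged from -2.69 through -1.85 to -1.56 in WT and was -2.18 and -2.23 in ckb12. NSA1 ranged from -2.33 through -2.06 to -1.77 and was -2.29 and -2.23. NOP16 ranged from -2.95 through -1.78 to -1.47 and was -2.10 and -2.03. The strains overlapped for these 3 genes, and their paired differences of -0.22, -0.25 and -0.30 were among the 5 closest to 0. NOP4 (YPL043W) and NOP8 (YOL144W) did not overlap between strains, with paired differences of -0.58 and -0.45, while PUF6, MAK16 (YAL025C), EBP2 (YKL172W) and LOC1 did, with differences of -0.79, -0.69, -0.57 and -0.62.

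The 4 GTPases mark successive stages. NOG1 (YPL093W) ranged from -3.99 through -3.58 to -2.94 in WT, an 11.6-fold mean fall, and was -4.28 and -4.24 in ckb12. NOG2 (YNR053C), which checks the particle before export, ranged from -3.30 through -2.71 to -2.13 and was -3.44 and -3.48. LSG1 (YGL099W) acts in the cytoplasm, where it releases NMD3 (YHR170W), and fell less, from -1.87 through -1.69 to -1.36, with ckb12 ratios of -2.06 and -1.95. These 3 genes did not overlap between strains, with paired differences of -0.81, -0.75 and -0.31. NUG1 (YER006W), a nuclear GTPase, overlapped between strains, with a WT mean of -2.22 ± 0.24 (SD, n = 7) and a ckb12 mean of -2.66 ± 0.25 (SD, n = 2). Its paired difference was -0.36.

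The AAA ATPases are engines that pull factors off the particle, RIX7 in the nucleolus and MDN1 (YLR106C), a very large protein listed as REA1 in the RefSeq table, later and together with the Rix1 complex of RIX1 (YHR197W), IPI1 (YHR085W) and IPI3 (YNL182C). RIX7 was -2.23, -2.51, -2.48, -2.64, -2.69, -2.19 and -2.45 on WT replicates 1, 2 and 8 to 12, and -3.34 and -3.25 in ckb12. All ckb12 values were below all WT values. It was the only member called against all 7 WT arrays, where the difference was -0.84 (SE 0.15) and the Benjamini-Hochberg adjusted p from limma 0.029. The call was lost without WT replicate 1 (adjusted p 0.054), WT replicate 8 (0.069), ckb12 replicate 1 (0.22) or ckb12 replicate 2 (0.30), under the same limma fit with Benjamini-Hochberg adjustment. It was also lost after quantile normalization, at -0.48 (adjusted p 0.24), and with equal median absolute deviations, at -0.67 (adjusted p 0.20). In the paired limma fit the difference was -0.73 (SE 0.15), with a Benjamini-Hochberg adjusted p of 0.144.

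RIX1 ranged from -2.86 through -2.52 to -2.14 in WT and was -3.34 and -3.38 in ckb12. IPI1 ranged from -2.53 through -2.14 to -1.54 and was -2.70 and -2.75, and IPI3 from -3.06 through -2.74 to -2.45, with -3.16 and -3.15. The strains did not overlap for any subunit of the complex, and the paired differences were -0.76, -0.61 and -0.44. MDN1 had the paired difference nearest to 0. It ranged from -2.18 through -2.09 to -1.55 in WT and was -2.17 and -2.16 in ckb12, inside the WT range. Its paired difference was -0.017 (SE 0.14) as deposited, 0.050 after quantile normalization and 0.18 with equal median absolute deviations. Whether MDN1 differs from the other members was not tested.

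RLP24 (YLR009W) and MRT4 (YKL009W) hold places in the precursor that ribosomal proteins L24 and P0 take later. RLP24 ranged from -3.75 through -2.87 to -2.45 in WT and was -3.78 and -3.62 in ckb12. MRT4 ranged from -3.70 through -2.95 to -2.67 and was -3.66 and -3.51. NSA2 (YER126C), a factor of the middle particles, ranged from -3.29 through -2.62 to -2.32 and was -3.01 and -2.96. For all 3 genes the lowest WT array was replicate 12, and without it the strains did not overlap. RLP24 had the lowest paired difference of the 53 members, -0.97 (SE 0.16), and its Benjamini-Hochberg adjusted p from limma was 0.119. Those of MRT4 and NSA2 were -0.80 and -0.43.

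The placeholders can be set beside the proteins they resemble. RPL24A and RPL24B, the paralogues of RLP24, had WT means of -2.04 ± 0.33 and -2.09 ± 0.41 (SD, n = 7) beside ckb12 means of -1.58 ± 0.093 and -1.72 ± 0.048 (SD, n = 2). RPL7A and RPL7B, the paralogues of RLP7, both had a mean of -2.10 in WT and of -1.96 in ckb12. Whether probes read both genes of such a pair, as they may for SSF1 and SSF2, was not examined. The means of RPP0, the P0 gene, were -2.08 and -2.21. The WT means of RLP24, RLP7 and MRT4 were -2.97, -3.13 and -3.06, each below those of the ribosomal proteins it resembles. The paired differences of the 5 ribosomal protein genes ran from -0.029 to 0.48 and none passed (limma, Benjamini-Hochberg).

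The export and late factors held both some of the larger falls and the smallest one. ARX1 (YDR101C), which helps the particle through the nuclear pore, ranged from -3.76 through -3.30 to -2.97 in WT and was -3.71 and -3.94 in ckb12. NMD3, the adaptor for the exportin CRM1, ranged from -2.51 through -2.23 to -2.18 and was -2.78 and -2.65, below every WT array. REI1 (YBR267W), which recycles ARX1 in the cytoplasm, ranged from -3.49 through -2.55 to -2.25 and was -3.33 and -3.34. SDA1 (YGR245C), of the late nuclear particle, did not overlap between strains, with means of -3.09 ± 0.15 for WT (SD, n = 7) and -3.71 ± 0.063 for ckb12 (SD, n = 2). Its paired difference of -0.42 became 0.13 after quantile normalization. The paired differences of ARX1, NMD3 and REI1 were -0.67, -0.48 and -0.79, and the strains overlapped for ARX1 and REI1. TIF6 (YPR016C) ranged from -1.27 through -0.85 to -0.45 in WT, a 1.86-fold mean fall, and its ckb12 ratios of -1.10 and -0.94 were inside that range, with a paired difference of -0.41.

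The level of the members differed between arrays. Their median was -2.33 on WT replicate 1, -2.69 on replicate 2, -2.66 on replicate 8, -2.73 on replicate 9, -2.86 on replicate 10, -2.53 on replicate 11 and -3.06 on replicate 12, against -3.34 and -3.38 on the ckb12 arrays. Both ckb12 medians were below all WT medians, the nearest of which was that of replicate 12. WT replicate 1 held the highest WT value of 26 members, and the share over all features was not computed. Between the 5 set-labelled WT arrays and the 2 without a letter, the median difference of the members was -0.18 as deposited and 0.013 after quantile normalization. In limma with Benjamini-Hochberg adjustment 0 members were called, beside 0.457% of all features, and 5 were lower at an unadjusted p below 0.05, beside 8.73%, while 1 (NUG1) was higher. NOG2 differed most, at -2.94 ± 0.33 on the 5 set-labelled arrays and -2.22 ± 0.13 on the 2 others (SD).

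**Figure D3:**
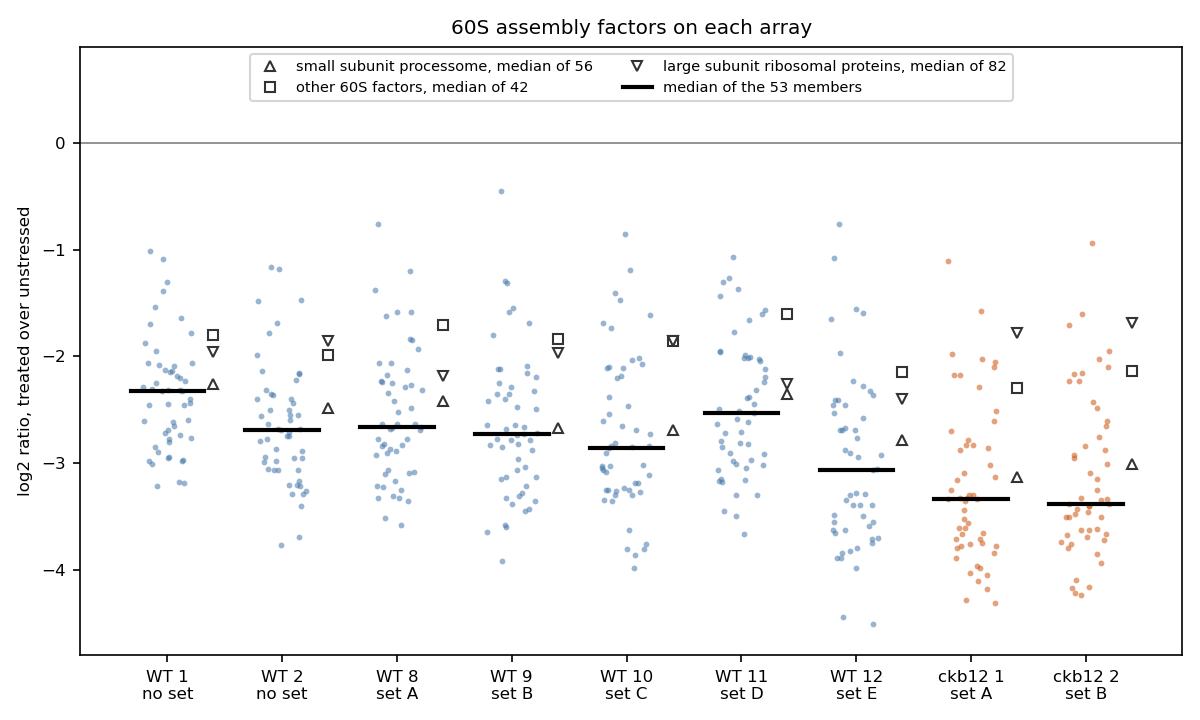
Log2 ratios of the 53 transcripts (points) on each of 9 arrays, with their median as a bar and the medians of 3 other gene lists as open symbols. The bars run from -2.33 to -3.06 on the WT arrays and stand at -3.34 and -3.38 on the ckb12 arrays.

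WT replicate 12 stood apart for a part of the members. It was the lowest WT array for 31 members and the highest for 5, and the shares over all features were not computed. This array also had the widest spread of the WT arrays over all features. Over the 53 genes its pairwise correlations with the other WT arrays were 0.67 to 0.79, whereas the 15 pairs among the others reached 0.87 to 0.96. The deviation of replicate 12 from the mean of the other WT arrays moved with gene length, taken from the R64 annotation and including introns. In length classes set after the values were seen, its median was -0.88 for the 13 members under 1000 nucleotides, -0.37 for the 27 between, and -0.011 for the 13 of 2000 nucleotides or more. Of the 13 short genes 12 were below the other WT arrays, and NOP15, LOC1 and NOP16 deviated most, by -1.76, -1.47 and -1.17. MDN1, the longest member at 14733 nucleotides, deviated by 0.52. The correlation of the deviation with log2 length over the 53 genes was 0.60 for replicate 12, or 0.57 without MDN1. It was -0.44 for WT replicate 8 and -0.61 for WT replicate 9, which belong to sets A and B, and between -0.30 and 0.16 for the other 4. Over the 5696 features with a length it was 0.22 for replicate 12, -0.19 for replicate 8 and -0.38 for replicate 9. These are descriptions over genes that share an array, and the part of length in the strain difference was not tested. The median paired difference, which does not use replicate 12, was -0.69 for the short and -0.58 for the long genes. Over the 53 genes, which share the 4 arrays, the paired difference correlated with log2 length at 0.40. MDN1, the longest member, also had the highest paired difference, -0.017, and this correlation was not computed without it.

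**Figure D4:**
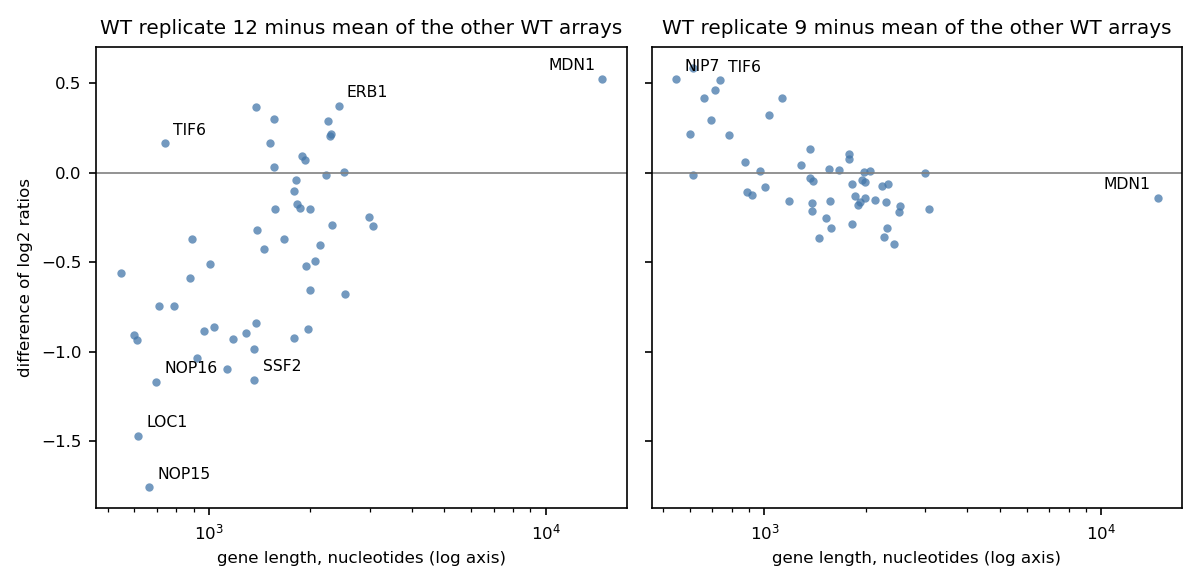
Deviation of WT replicate 12 (left) and WT replicate 9 (right) from the mean of the other WT arrays, as a difference of log2 ratios (y axis), against gene length in nucleotides (log x axis), 1 point per gene for 53 genes. Short genes lie low on replicate 12, with a median of -0.88, and high on replicate 9, with a median of 0.21.

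Other genes of the same pathway, taken from lists written by function with earlier results of these data known, give the setting. Of 42 further 60S factors, 39 fell in WT, 2 rose and 1 (MEX67) did not pass, with a median of -1.84 (limma, Benjamini-Hochberg). Those that rose were CRM1 at 0.27 ± 0.10, the exportin that serves many cargoes, and REH1 at 0.70 ± 0.21 (SD, n = 7), a paralogue of REI1, which itself averaged -2.69 ± 0.45. All 56 genes of the small subunit processome fell, with a median of -2.50, as did 7 of 8 RNA polymerase I genes (RRN3 did not pass), with a median of -2.69, and 80 of 80 large subunit ribosomal protein genes tested, with a median of -2.09. The median paired strain differences were -0.39 for the other 60S factors, -0.56 for the processome, -0.59 for RNA polymerase I and 0.34 for the ribosomal proteins, beside -0.61 for the members. After quantile normalization these medians were -0.16, -0.19, -0.19 and 0.44, beside -0.21 for the members, and with equal median absolute deviations -0.20, -0.27, -0.30 and 0.51, beside -0.34. Against all 7 WT arrays, 5 of 56 processome genes, 1 of 8 RNA polymerase I genes and 0 of 80 ribosomal protein genes were called lower in ckb12. The share over all features was 0.783%. Also called lower were 3 of the 42 other 60S factors, named here after their values were seen. RSA4, a partner of MDN1, differed by -1.17 (adjusted p 0.016), the helicase MTR4 by -0.81 (0.028) and the AAA ATPase AFG2, which releases RLP24, by -0.75 (0.040), all with limma and Benjamini-Hochberg adjustment. None of the 3 passed after quantile normalization or with equal median absolute deviations, where the differences ran from -0.99 to -0.30.

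Known regulators of this regulon were read for their own transcripts. TOD6, a repressor of ribosome biogenesis genes, fell to -3.23 ± 0.21 in the WT arrays (SD, n = 7) and to -4.15 ± 0.023 in the ckb12 arrays (SD, n = 2). The difference from the 7 WT arrays was -0.93, and the Benjamini-Hochberg adjusted p from limma was 0.024. With equal median absolute deviations it was -0.72 (adjusted p 0.16, limma with Benjamini-Hochberg) and after quantile normalization -0.38 (0.29). DOT6, its paralogue, averaged -0.093 ± 0.26 in WT and did not pass. SFP1, an activator of growth genes, rose by 0.36 ± 0.20, and STB3, a repressor that binds an element of these promoters, by 0.71 ± 0.16 (SD, n = 7). In ckb12 they averaged 0.079 ± 0.012 and 0.59 ± 0.14 (SD, n = 2), and neither passed between strains in limma (Benjamini-Hochberg adjusted p 0.44 and 0.75 against all 7 WT arrays). A transcript gives no measure of the activity of these proteins.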

How the data were processed

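The authors labelled cDNA of treated and unstressed cells, hybridised both to tiled 2-colour arrays and deposited normalized log2 ratios, 1 value per feature and array, with replicates kept apart. The direction of the ratios and their base come from the methods and labels and are nowhere in the table itself. The combination of tiles, the background and filters, and the genome build of the array are not given in the sources used here, so no coordinates are printed. Symbols and gene lengths were taken from RefSeq (R64), which matched 6023 of 6942 IDs and all 53 members.

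The methods mention dye swaps on selected samples, with 1 orientation kept for paired strains, and the labels give the treated channel the same dye on every array. The ratios were tested in R 4.3.3 with limma 3.58.1 (lmFit, eBayes) over features with a value on each array used, with Benjamini-Hochberg adjustment over all of them. The paired fit used set letters, because the replicate numbers of the strains do not match. When this was checked, the deviations of the arrays of 1 set from their groups had correlations of -0.088 (A) and -0.015 (B) over all features and 0.29 and 0.029 over the members. The deviations of the 2 ckb12 arrays from their own mean mirror each other, so sets A and B are not separate checks. Over all features these values showed no positive tie between the arrays of a set. Each fit was run on simulated data with independent noise and added changes. The simulation held no effects shared by the features of an array, so it does not measure how reliable the fits are for these data. No intensities were used. Precision is limited by the number of arrays.

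The members and the comparison lists, written from memory, were chosen with earlier results of these data known. All members may be named. Values on single arrays are given for the 5 largest and 5 smallest WT falls, for calls between strains, for the 5 lowest and 5 highest paired differences and for genes picked by role. Alternatives were other scalings, missing values allowed, other features, models and thresholds, and leaving out single arrays.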

Additional observations from a re-analysis of the deposited data

Results flagged for a closer look

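In 9 members 1 WT array lay far from the other 6, by a gap that chance alone gives in about 1 of 20 independent, normally distributed groups. The members share the same arrays, so these are not separate cases, and the share over all features was not computed. WT replicate 12 was the lowest WT array for NOP15 at -4.51 (next -3.03), CIC1 at -3.59 (next -2.84), RLP7 at -3.89 (next -3.25), SSF1 at -3.55 (next -2.75), SSF2 at -2.69 (next -1.62), EBP2 at -3.63 (next -2.82) and NSA2 at -3.29 (next -2.66). SSF1 and SSF2 may share probe signal and are then not 2 cases. For MDN1 the same array was the highest, at -1.55 (next -1.99). For NMD3, WT replicate 2 was the lowest, at -2.51 (next -2.25). RIX7 was the member whose response differed between strains in limma with Benjamini-Hochberg adjustment, by -0.84 against all 7 WT arrays. The call was lost after quantile normalization (-0.48), with equal median absolute deviations (-0.67) and without any of 4 single arrays, and the paired difference of -0.73 did not pass (limma, Benjamini-Hochberg adjusted p 0.144).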

How the results depend on the processing

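The WT and ckb12 falls of all 53 members kept their direction and their call under every scaling, filter and left-out array that was run, except that TIF6 (-0.90) missed a minimum of 1 in log2 units. The median ckb12 response was -3.01 after quantile normalization and -3.23 with equal median absolute deviations, and -3.38 to -3.34 with 1 ckb12 or WT array left out.

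The paired strain difference depended on the model. The count of members called lower, 0 with the set as replicate block, was 31 with ORF-style features only (368 of all features) and 8 with robust eBayes (107). The remaining settings compared ckb12 with all 7 WT arrays, so they changed the WT arrays as well as the model. They gave 1 member with no replicate block (48) and 3 with the set as a random replicate block (68), counts that return in the next paragraph. When both ckb12 values had to lie beyond the WT mean by 2 SD, 20 members were lower (339). The cause of these shifts was not tested. The paired median was -0.21 after quantile normalization and -0.34 with equal median absolute deviations. Quantile normalization turned the paired difference of DBP3 to 0.017, DRS1 to 0.040, ERB1 to 0.11, HAS1 to 0.22, MDN1 to 0.050, NOP7 to 0.33, SDA1 to 0.13 and YTM1 to 0.071, and equal median absolute deviations that of MDN1 to 0.18 and NOP7 to 0.15. Leaving 1 array out of the paired fit could not be fitted, since 1 pair has no residual degrees of freedom.

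Against all 7 WT arrays, the count of 1 called member (48 of all features) was 0 under quantile normalization (28 of all features) and equal median absolute deviations (29), and 3 with ORF-style features only (61), a Storey-type q value (65) or the set as a random block (68). Leaving out single arrays gave 0 to 15, the 15 without WT replicate 12 (110 of all features), with medians from -0.63 to -0.53. After quantile normalization the median was -0.18, and ARX1 turned to 0.00572, HAS1 to 0.069, MRT4 to 0.00804, NOP7 to 0.096 and RRS1 to 0.051. RIX7 (-0.84) lost its call there (-0.48) and with equal median absolute deviations (-0.67). The median between set-labelled and other WT arrays turned to 0.013 after quantile normalization and was -0.35 to -0.018 with single arrays left out. The planned description of promoter motifs was not run, since no promoter sequences were used here.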
